A study of Mus musculus with 162 samples.

Results

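The genes described here are 10 genes of the integrated stress response that act with or downstream of the transcription factor ATF4: Atf4 itself, Atf3, Ddit3, Trib3, Asns, Chac1, Sesn2, Psat1, Phgdh and Ddit4. They were chosen by name, as the genes of the count table whose symbol is one of these, and they are 10 of 53686 genes counted. The study followed short-term fasting (STF) in 18 male C57BL/6J mice aged 8 to 9 weeks. Of these, 3 mice had food ad libitum (0 h) and 3 mice each were fasted for 2, 8, 12, 18 or 22 h, and all were killed at the same hour early in the dark phase. Each mouse gave 9 organs. From the head came the olfactory bulb (OB), the brain (BRN), the cerebellum (CBL) and the brainstem (BST), and from the body the liver (LIV) and the stomach (STM). Adipose tissue was taken from 3 depots: brown fat between the shoulder blades (interscapular, iBAT), white fat around the gonads (perigonadal, pgWAT) and white fat under the skin towards the tail (posterior-subcutaneous, psWAT). Stranded mRNA-seq of polyadenylated RNA gave 1 library per mouse and organ, and reads were counted per gene.

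When cells meet unfolded protein, lack of amino acids, lack of heme or viral RNA, kinases phosphorylate the initiation factor eIF2, general translation slows, and the messenger of Atf4 is translated more. ATF4 protein then drives genes for amino acid synthesis and uptake, for redox balance and, under long stress, for cell death. Because ATF4 is raised largely by translation, the level of its messenger says little about the amount of the protein, and protein was not measured here.

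The total count of the libraries used ran from 3045845 to 27801717, with a median of 8735554. The other 5 libraries had a total more than 2 standard deviations under the mean of their organ on the log10 scale and were left out: BRN at 8 h replicate 3 (130701 counts), BRN at 18 h replicate 1 (279848), STM at 12 h replicate 3 (4590060), iBAT at 22 h replicate 1 (2700482) and psWAT at 22 h replicate 2 (2944552). Lane and library series were read from the library names, as the lane code that ends each name and the number series that begins it. The names do not give the run or flow cell, and below a lane means such a code. It moved with time in OB, STM and LIV. There the 0 h and 2 h libraries and replicates 1 and 2 of 8 h carried a first lane code and all later ones a second. In pgWAT no 18 h or 22 h library shared a lane code with a 0 h library. In iBAT the 22 h libraries had lane codes that no other iBAT library used, and in BRN the 0 h libraries came from a different library series than most later ones.

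Hepatocyte, gastric and white adipocyte markers were highest in LIV, STM and pgWAT. The median summed level of 5 hepatocyte markers was 90665 counts-per-million (CPM) in LIV, that of 6 gastric epithelium markers 152974 CPM in STM, and that of 5 white adipocyte markers 26911 CPM in pgWAT. In psWAT the white adipocyte median was 3326 CPM, below the 10584 CPM of iBAT and close to the 3110 CPM of lymphocyte markers. Some libraries stood apart. In psWAT at 12 h, replicate 3 held 3325 CPM of 5 cerebellar markers and 3912 CPM of 5 neuron markers. In pgWAT at 22 h, replicate 2 held 23167 CPM of 5 epididymis markers and 3630 CPM of 5 white adipocyte markers, against 18623 to 39473 CPM of the latter in the other pgWAT libraries. Among psWAT libraries the white adipocyte sum, with Fabp4 as its most abundant gene, ran from 385 to 24333 CPM. Skeletal muscle markers, 5 genes led by Acta1, Ckm, Myh4 or Tnnt3, ran from 34.3 to 9874 CPM in iBAT and from 15.4 to 30362 CPM in psWAT. With edgeR none of the 10 genes was called in either white fat depot in the comparisons of fasting that follow. The comparison of responses between organs does draw on these libraries, and it was not run without them. DESeq2 called 4 of them in psWAT in 1 test, which was not run without these libraries.

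The broadest comparison asked which of the 10 genes differ late in the fast, as the mean of 18 h and 22 h against 0 h in each organ. Chac1 was 6.64-fold higher in LIV, Ddit4 was higher in OB and iBAT, Phgdh was higher in iBAT and Psat1 in BRN, and Asns was 0.471 times its fed level in STM. A gene was called at an adjusted p under 0.05 (edgeR quasi-likelihood F-test, Benjamini-Hochberg over all genes tested in the organ). Of 88 tests of a member in an organ, 6 were called, 5 up and 1 down, beside 6.44% of all 144217 tests. At an unadjusted p under 0.05 there were 18. The share of all genes at that cut ran from 5.19% in psWAT to 37.04% in iBAT. Of the 88 log2 fold changes of members, 58 were above 0. DESeq2 called 8, adding Ddit3 in BRN and Ddit4 in CBL, while the pairs of gene and organ called over all genes went from 9289 to 14365. With the lane or library series as a covariate in OB, BRN, STM, LIV, pgWAT and psWAT, no member was called in those organs. The 2 calls of iBAT, where no covariate was fitted, then remain. With all 18 libraries of each organ 3 were called. In iBAT lane and 22 h cannot be told apart, so its calls are not adjusted for lane. A further threshold of an absolute log2 fold change above 1 left 4, without Ddit4 in OB and Psat1 in BRN. Trib3 in BRN and Phgdh in LIV were too low to be tested. In bulk tissue, fewer cells of a type and less RNA per cell cannot be told apart. All times are compared with the same 0 h libraries.

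By organ, members called late in the fast were 1 of 10 in OB (1.95% of all genes), 1 of 9 in BRN (11.2%), 1 of 10 in STM (15.3%), 1 of 9 in LIV (10.6%) and 2 of 10 in iBAT (20.9%). In CBL (0.344%), BST (0.0596%), pgWAT (0.00609%) and psWAT (0.00%) edgeR called none of the 10 genes. In those organs 1, 2, 0 and 1 members had an unadjusted p under 0.05, beside 15.0%, 9.86%, 21.7% and 5.19% of all genes. DESeq2 called Ddit4 in CBL and no other member in those organs. It gave no adjusted p for Atf3 and Trib3 in CBL, or for Atf3, Chac1, Ddit3, Phgdh, Sesn2 and Trib3 in BST. The median log2 fold change of the members was 0.38 in iBAT and 0.34 in BRN, beside medians over all genes of -0.07 and -0.09. It was 0.25 in LIV, 0.16 in STM, 0.10 in OB and 0.10 in CBL, beside 0.01, 0.00, -0.01 and -0.01. In BST and pgWAT it was 0.01 and 0.06, beside 0.00 and 0.05, and in psWAT it was -0.30, beside -0.01.

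**Figure D1:**
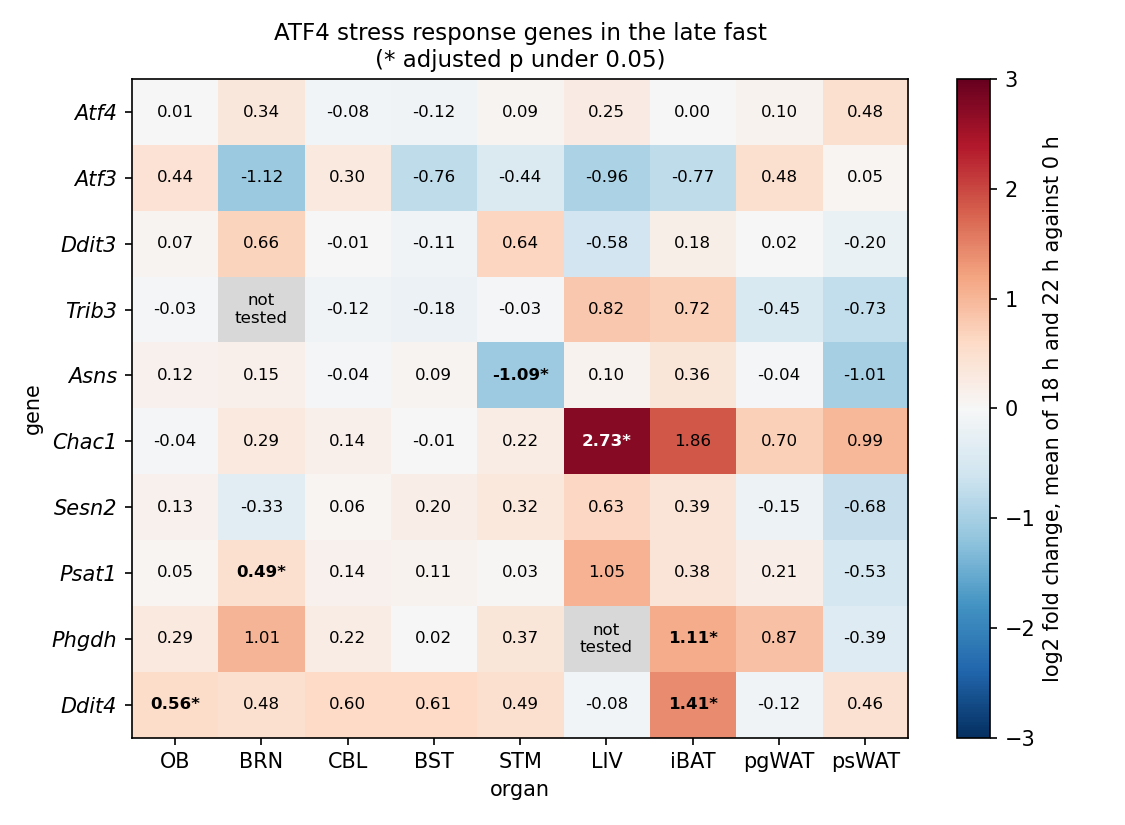
Log2 fold change of each of the 10 genes (vertical) in each of the 9 organs (horizontal), mean of 18 h and 22 h of fasting against 0 h; an asterisk marks an adjusted p under 0.05 and grey a gene that was not tested. The 6 marked squares are Chac1 in LIV (2.73), Ddit4 in iBAT (1.41) and OB (0.56), Phgdh in iBAT (1.11), Psat1 in BRN (0.49) and Asns in STM (-1.09).

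Atf4, the transcription factor at the center of the response, was called late in the fast in no organ, although its 18 h and 22 h libraries lay on opposite sides of the fed ones in iBAT. In iBAT, normalized CPM (scaled by TMM, the trimmed mean of M-values, within the organ) of Atf4 were 140, 96.9 and 158 at 0 h, 86.5, 87.4 and 86.9 at 18 h, and 223 and 178 at 22 h. Both 22 h libraries were above every fed library and all 18 h libraries were below every fed library, so the late mean lay at the fed level with a log2 fold change of 0.00 (adjusted p = 1.00). At 18 h alone the difference was -0.60 (adjusted p = 0.37) and at 22 h alone 0.60 (adjusted p = 0.051), and the test over all times given further on called Atf4 in iBAT. In psWAT, Atf4 was 248, 254 and 239 CPM at 0 h, 172, 156.1 and 341 at 18 h, and 551 and 518 at 22 h. Here too the 22 h libraries were the high ones and 18 h spread to either side of 0 h, and 22 h against 0 h gave 1.11 (adjusted p = 0.23). Over the 9 organs the late log2 fold change of Atf4 ran from -0.12 in BST to 0.48 in psWAT, with 3 organs at an unadjusted p under 0.05 and none called by edgeR or DESeq2.

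Atf3 encodes a stress-induced factor that can dampen ATF4 targets, and Ddit3 encodes CHOP, the factor that links long stress to cell death. Late in the fast Atf3 ran from -1.12 in BRN to 0.48 in pgWAT with no organ at an unadjusted p under 0.05 and none called by DESeq2, at low levels. DESeq2 gave Atf3 no adjusted p in OB, BRN, CBL and BST. The highest late pgWAT value, 28.5 CPM, was from replicate 2 of 22 h, the library with epididymis markers, while the other 5 late libraries held 5.14 to 13.2 CPM and the fed ones 4.95 to 10.7 CPM. Ddit3 in BRN was 19.4, 23.7 and 32.9 CPM at 0 h, 47.03 and 34.8 at 18 h, and 42.3, 43.05 and 32.5 at 22 h. All of these late libraries but replicate 3 of 22 h were above every fed library, and the log2 fold change was 0.66 (adjusted p = 0.060; 0.025 by DESeq2). In STM, Ddit3 was 17.8, 13.4 and 23.4 CPM at 0 h, 25.5, 31.8 and 33.1 at 18 h, and 36.4, 16.6 and 26.9 at 22 h. There 5 of 6 late libraries were above the fed range, and the difference of 0.64 missed the threshold (adjusted p = 0.079). The annotation holds a second record named Ddit3 that overlaps the first, and the 3′ end of Ddit3 overlaps Mars on the opposite strand, so reads shared by records may have been dropped and its level is uncertain.

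Trib3 encodes a pseudokinase that feeds back on ATF4, and Chac1 encodes an enzyme that breaks down glutathione. Chac1 in LIV was 1.41, 1.013 and 0.422 CPM at 0 h, from 11, 8 and 3 counts. It was 6.59, 12.0 and 6.09 CPM at 18 h and 4.76, 5.93 and 4.67 at 22 h. Every late library was above every fed one, and Chac1 rose by a log2 fold change of 2.73 (SE 0.40, adjusted p = 0.00044). Leaving out each of the 9 fed and late libraries in turn gave 2.40 to 3.12, with adjusted p from 0.00029 to 0.0052. With the lane as a covariate the change was 2.25 and no longer passed (adjusted p = 0.14, in a range of 6.0e-12 to 0.14 over the alternatives). The same gene in iBAT was 1.30, 0.888 and 1.52 CPM at 0 h, 2.07, 7.28 and 4.28 at 18 h, and 4.77 and 4.34 at 22 h. Again all late libraries lay above the fed ones, but the change of 1.86 was not called (SE 0.94, adjusted p = 0.16), and replicate 3 of 12 h reached 16.3 CPM. All 5 skeletal muscle markers together were 68.96, 371.5 and 2805 CPM in the fed iBAT libraries, 287.5, 273 and 1049 at 18 h, and 2052 and 1659 at 22 h, with 9874 CPM in that library of 12 h. In psWAT, Chac1 was highest in replicate 3 of 18 h (32.8 CPM) and replicate 2 of 2 h (24.5 CPM), which held 19314 or more CPM of these markers, while replicate 2 of 8 h held 21650 CPM of them and 8.33 CPM of Chac1. The part of muscle in the values of Chac1 in fat was not tested.

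Trib3 was called late in no organ by edgeR or DESeq2, and DESeq2 gave it no adjusted p in OB, BRN, CBL and BST. Its log2 fold changes ran from -0.73 in psWAT to 0.82 in LIV, with 1 organ at an unadjusted p under 0.05. That organ was iBAT, where Trib3 was 7.18, 4.59 and 5.28 CPM at 0 h, 6.81, 5.91 and 7.35 at 18 h, and 18.1 and 8.56 at 22 h. The 18 h libraries overlapped the fed ones and the 22 h libraries were above them, giving 0.72 late in the fast (adjusted p = 0.098).

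Asns encodes asparagine synthetase, which makes asparagine from aspartate and glutamine. In STM, Asns was 203, 172 and 191.9 CPM at 0 h, 93.3, 64.997 and 77.1 at 18 h, and 92.2, 137.9 and 72.7 at 22 h. All late libraries were below all fed ones, and Asns fell by 1.09 on the log2 scale (SE 0.21, adjusted p = 0.0054). Each of the 9 fed and late libraries could be left out without loss of the call, over a range of -1.22 to -0.99 and adjusted p from 0.0025 to 0.032. With the lane as a covariate the change was -0.72 (adjusted p = 0.75), and without the 18 h libraries it was -0.90 (adjusted p = 0.086), in a range of 0.00010 to 0.75 over the alternatives. All 6 gastric epithelium markers together, with Pgc as the most abundant, were 188575, 141907 and 175918 CPM in the fed STM libraries and 87888 to 171501 CPM in the late ones, and their part in the result was not tested.

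In BST, Asns was 104.5, 101.05 and 103.7 CPM at 0 h and 105.9 to 113.6 CPM late in the fast. The groups did not overlap there either, yet the difference of 0.09 was small and was not called (adjusted p = 0.57). In psWAT, Asns was 89.4, 78.1 and 11.1 CPM at 0 h, 6.77, 5.07 and 8.54 at 2 h, 119.2, 53.5 and 107.8 at 8 h, and 5.21 and 46.3 at 22 h. One fed library sat near the low libraries, yet all 3 libraries of 2 h were below it, and 2 h against 0 h gave -3.13 (unadjusted p = 0.0062, adjusted p = 0.41). Late libraries overlapped the fed ones, and the late log2 fold change was -1.007 (SE 0.79, adjusted p = 0.94). At 0, 2, 8 and 22 h the white adipocyte sum moved with Asns: 16418, 13228 and 1150 CPM at 0 h, 1587, 593 and 808 at 2 h, 24333, 8330 and 17476 at 8 h, and 385 and 11648 at 22 h. The sums at 12 h and 18 h are not listed here, so this parallel is stated for 0, 2, 8 and 22 h only. All 5 white adipocyte markers were measured, and their part in the result was not tested.

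Phgdh and Psat1 encode the first and second enzymes of serine synthesis from a glycolytic intermediate. In iBAT, Phgdh was 1.16, 2.96 and 3.65 CPM at 0 h, 4.06, 3.27 and 2.14 at 18 h, and 11.8 and 7.79 at 22 h. The 18 h libraries lay mostly inside the fed range and the 22 h libraries were above all others of the organ, and Phgdh rose by 1.11 late in the fast (SE 0.36, adjusted p = 0.037). That call rests on 22 h: without that time the change was 0.30 (adjusted p = 0.84), and without its replicate 2 it was 0.95 (adjusted p = 0.10). It also missed the threshold without 0 h replicate 1 (0.74, adjusted p = 0.14) or replicate 2 (1.22, 0.10), without 18 h replicate 1 (1.00, 0.073) or replicate 2 (1.10, 0.059), with all 18 libraries (0.95, 0.11), with no filter on low counts (1.09, 0.052) and with offsets for transcript length (0.78, 0.17), in a range of adjusted p from 0.016 to 0.84 over the alternatives.

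The iBAT libraries of 22 h differed from the rest in other ways too. Counts in them fell with transcript length, with log2 slopes of -1.996 and -1.32 per unit of log10 length, against -0.64 to 0.73 in the other iBAT libraries. Mitochondrial genes made up 5.47% and 11.8% of their counts, against 33.1%, 36.2% and 19.5% at 0 h. All 5 brown adipocyte markers together, with Ucp1 as the most abundant, were 17398 and 11835 CPM, against 10394, 7032 and 7851 CPM at 0 h. Time, lane and these features cannot be told apart, and their part in the changes of Phgdh, Ddit4, Trib3 and Atf4 at 22 h was not tested beyond the offsets for length. With these the late changes were 0.78 for Phgdh (adjusted p = 0.17) and 0.90 for Ddit4 (adjusted p = 0.20), while over all times Trib3 did not pass (0.35) and Atf4 did (0.0069).

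Psat1 in BRN was 130, 143.3 and 138.8 CPM at 0 h, 211 and 159.3 at 18 h, and 198, 224 and 180 at 22 h. All late libraries were above all fed ones, and Psat1 rose by 0.49 (SE 0.16, adjusted p = 0.049). The fed BRN libraries also stood apart in the slope of counts on transcript length, with 0.98, 0.73 and 0.80 log2 units per unit of log10 length against -0.87 to 0.57 in all later ones, and its part in the results of BRN was not tested beyond the offsets for length. The left-out BRN library of 18 h held 96.5 CPM of Psat1 (95% counting interval 63.6 to 140.4), against 145.1 to 155.3 CPM at 0 h on the same scale without TMM. The adjusted p of 0.049 is at the threshold. The call ended with the library series as a covariate (0.42, adjusted p = 0.56), with all 18 libraries (adjusted p = 0.72) and with a linear time trend (0.16). It also ended with RLE scaling (0.053), with no filter (0.065) and with offsets for length (0.089). Without 2 h replicate 3 and 18 h replicate 2 together it ended too (0.38, adjusted p = 0.19). The range was 0.028 to 0.72 over the alternatives. Leaving out single libraries ended it for all 3 fed ones (adjusted p = 0.18, 0.10 and 0.12), 2 h replicates 1 and 3 (0.058 and 0.063), both of 8 h (0.059 each), 12 h replicates 1 and 3 (0.060 and 0.050), 18 h replicate 2 (0.17) and 22 h replicates 1 and 2 (0.088 and 0.10).

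Without BRN at 18 h replicate 3, 5 members were called in BRN and 10 over all organs, while the pairs of gene and organ called over all genes went from 9289 to 13003. That setting leaves replicate 2 as the single library of BRN at 18 h, with the spread taken from the other times, so these calls are not counted as results. Phgdh in BRN was 17.0, 12.3 and 23.5 CPM at 0 h, 64.3 and 18.1 at 18 h, and 34.6, 42.6 and 17.0 at 22 h. The late values spread widely and in part overlapped the fed ones, and the difference of 1.014 was not called (adjusted p = 0.11). In pgWAT, Phgdh was 71.6, 104.8 and 91.2 CPM at 0 h, 206, 108.5 and 148.4 at 18 h, and 204, 26.2 and 288 at 22 h. The low value belonged to the 22 h library with epididymis markers, the other 5 late libraries were above all fed ones, and the difference was 0.87 (SE 0.50, adjusted p = 0.31). Late and 0 h libraries share no lane in pgWAT.

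**Figure D2:**
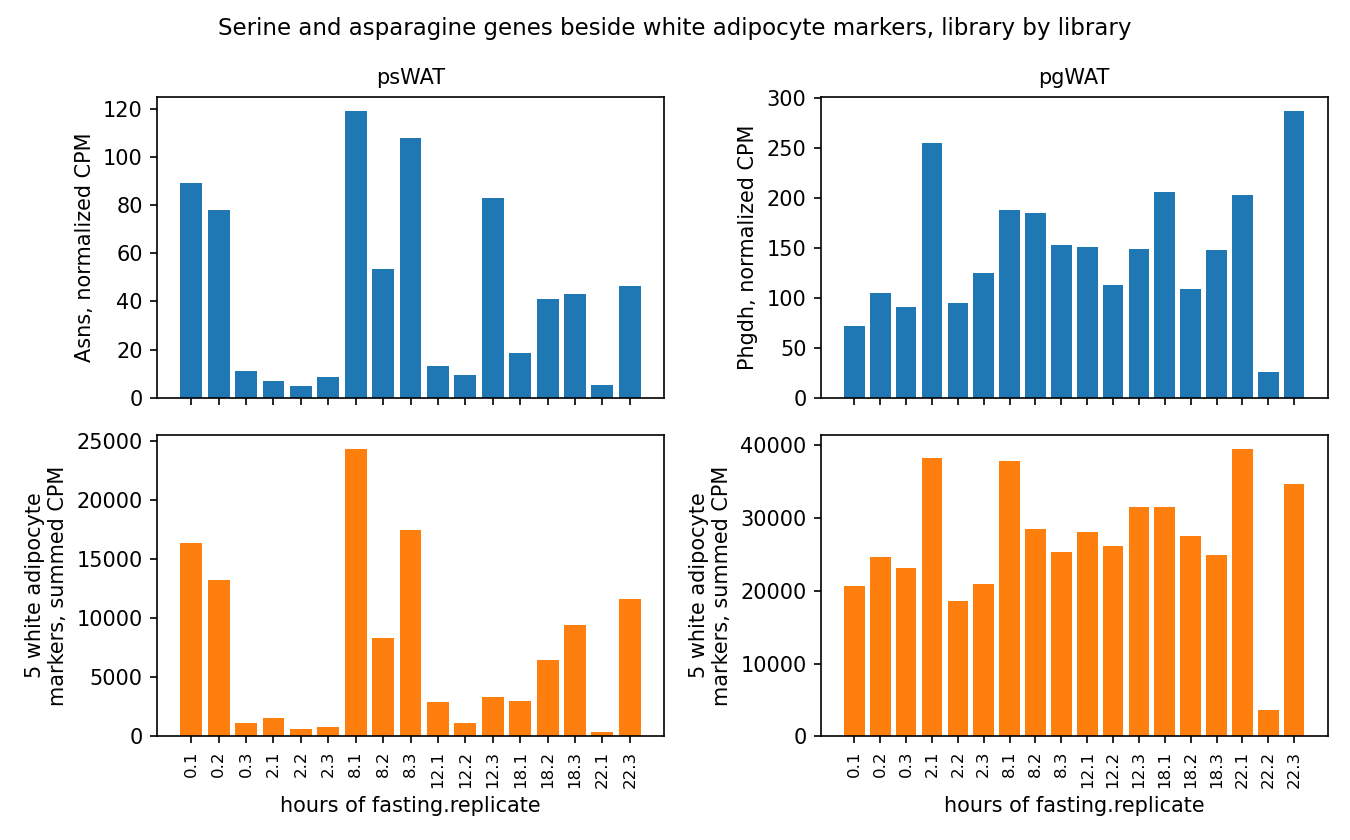
Normalized CPM in each library (bars, ordered by hours of fasting) of Asns in psWAT and Phgdh in pgWAT, each above the summed CPM of 5 white adipocyte markers in the same libraries. In psWAT the 2 h libraries are low in Asns (5.07 to 8.54 CPM) and in the markers (593 to 1587 CPM), and in pgWAT replicate 2 of 22 h is low in Phgdh (26.2 CPM) and in the markers (3630 CPM).

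Sesn2 and Ddit4 encode inhibitors of the growth kinase complex mTORC1, the first as a leucine sensor and the second through the TSC complex, and Ddit4 is also a target of glucocorticoids. Ddit4 in OB was 70.9, 72.1 and 63.1 CPM at 0 h, 82.6, 97.2 and 114.5 at 18 h, and 98.1, 100 and 115.98 at 22 h. All late libraries were above all fed ones, and Ddit4 rose by 0.56 (SE 0.09, adjusted p = 0.0063). The call ended with the lane as a covariate (0.68, adjusted p = 0.54), with offsets for length (0.40, 0.12) and without 0 h replicate 1 (0.58, 0.051), in a range of 3.5e-09 to 0.54 over the alternatives.

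In iBAT, Ddit4 was 36.9, 46.5 and 9.13 CPM at 0 h, 37.9, 49.3 and 108 at 18 h, and 96.7 and 111.7 at 22 h. Replicate 3 of 18 h and both 22 h libraries were well above the fed range, 1 further 18 h library was just above it, and Ddit4 rose by 1.41 (SE 0.41, adjusted p = 0.028). The call was lost without the 22 h time (1.06, adjusted p = 0.44), without 22 h replicate 2 (1.46, 0.062), with all 18 libraries (1.19, 0.10), with no filter (1.38, 0.092) and with offsets for length (0.90, 0.20), in a range of 0.0028 to 0.44 over the alternatives. In CBL, Ddit4 was 55.3, 63.01 and 50.4 CPM at 0 h, 58.9, 73.0 and 103.9 at 18 h, and 81.1, 98.8 and 97.1 at 22 h. Of these late libraries 5 of 6 were above the fed range, and 0.60 missed the threshold in edgeR (adjusted p = 0.069) and passed it in DESeq2 (0.0040). BST gave a like difference of 0.61 (5 of 6 late libraries above the fed range, adjusted p = 0.43), and Ddit4 had an unadjusted p under 0.05 in 5 organs, the highest number among the members.

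Sesn2 in LIV was 8.08, 8.73 and 5.77 CPM at 0 h, 11.2, 10.1 and 15.9 at 18 h, and 10.1, 10.9 and 11.6 at 22 h. All late libraries were above the fed ones by a log2 fold change of 0.63 that missed the threshold (adjusted p = 0.079). In psWAT the change of Sesn2 was -0.68, with an unadjusted p of 0.018 and an adjusted p of 0.94.

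**Figure D3:**
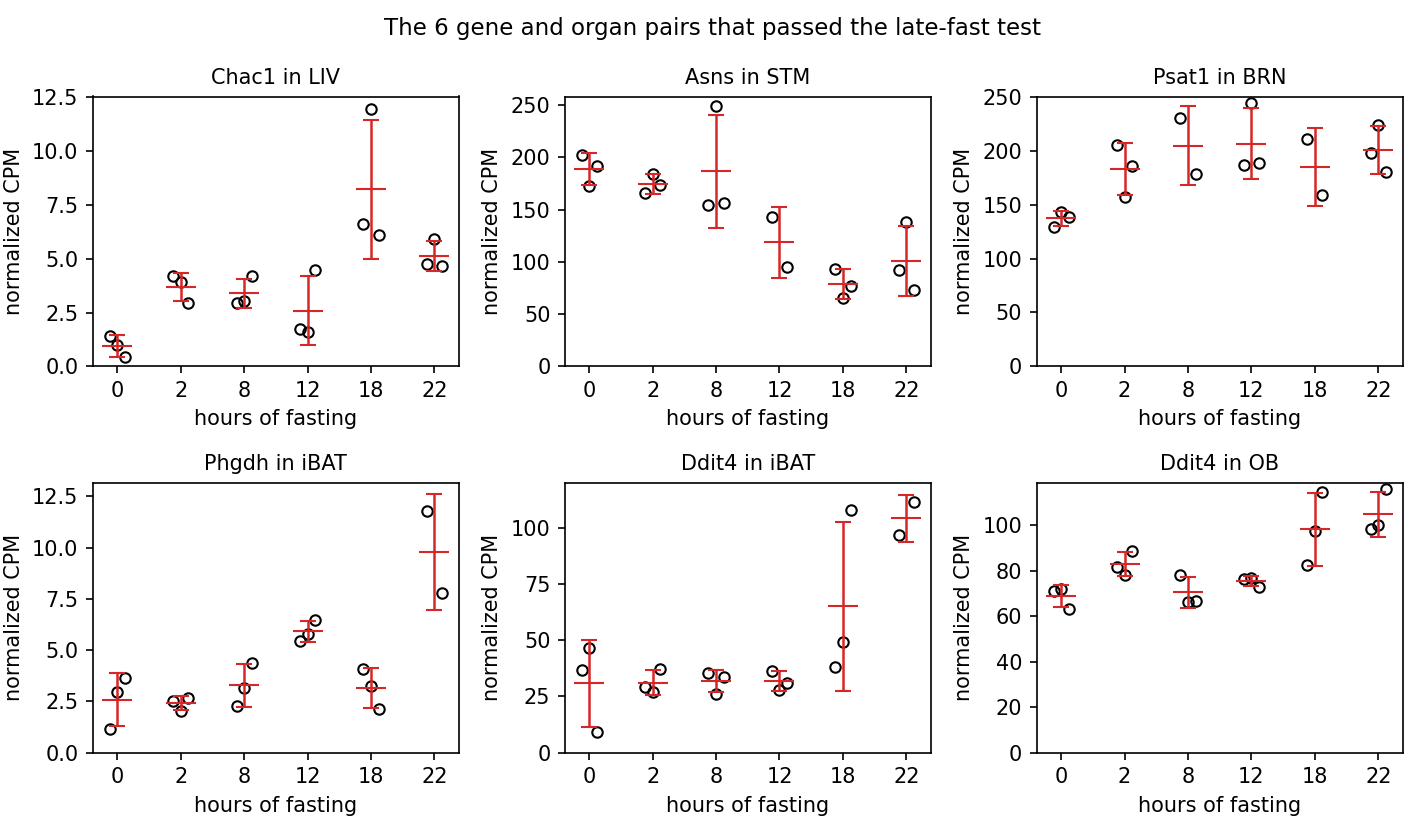
Normalized CPM in each library (points) against hours of fasting for the 6 gene and organ pairs called late in the fast, with the mean and SD of each time in red. Late libraries lie apart from 0 h for Chac1 in LIV (4.67 to 12.0 against 0.422 to 1.41 CPM), Asns in STM, Ddit4 in OB and Psat1 in BRN, and overlap 0 h for Ddit4 and Phgdh in iBAT.

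Each single time was also compared with 0 h. At 2 h and at 8 h edgeR called no member, beside 0.0395% and 0.0874% of all tests. At an unadjusted p under 0.05 there were 9 and 7 members. The share of all genes at that cut ran from 3.27% in CBL to 10.2% in LIV at 2 h. At 8 h it ran from 2.22% in STM to 16.8% in LIV. DESeq2 was not run for single times. Chac1 in LIV was already 4.21, 3.91 and 2.95 CPM at 2 h, above the fed range in all 3 mice (1.93, adjusted p = 0.075). At 12 h 1 member was called, Psat1 in BRN (0.59, adjusted p = 0.048), beside 1.88% of all tests. At 18 h there were 3 (4.29% of all tests): Chac1 in LIV (3.06, 0.00056), Asns in STM (-1.27, 0.0065) and Ddit4 in OB (0.51, 0.0078). At 22 h there were 6 (5.81% of all tests): Chac1 in LIV (2.40, 0.0059), Ddit4 in OB (0.61, 0.027), CBL (0.71, 0.027) and iBAT (1.75, 0.010), and Phgdh (1.91, 0.0026) and Trib3 (1.197, 0.017) in iBAT, an organ in which 41.02% of all genes were called at that time.

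The fasts of 8 h and 12 h, which ran largely through the light phase and are together called daytime, gave 3 called members of 88 (1.90% of all tests). At an unadjusted p under 0.05 there were 8, while the share of all genes at that cut ran from 2.70% in psWAT to 25.6% in LIV. The called members were in BRN and LIV. In BRN (8.16% of all genes) they were Ddit3 and Psat1. Ddit3 was 40.5 and 51.7 CPM at 8 h and 36.6, 36.2 and 53.3 at 12 h, all above the fed range, and rose by 0.80 (adjusted p = 0.036). Psat1 was 230.7 and 178.7 CPM at 8 h and 186.6, 245 and 188.5 at 12 h, also all above it, and rose by 0.58 (adjusted p = 0.032). Chac1 in LIV (8.89% of all genes) was 2.96, 3.04 and 4.18 CPM at 8 h and 1.71, 1.60 and 4.46 at 12 h, above every fed library, and rose by 1.59 (adjusted p = 0.021).

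These daytime calls were sensitive to single libraries. In BRN, without each of the 3 fed libraries or each of both 8 h libraries, Ddit3 had adjusted p of 0.20, 0.11, 0.055, 0.073 and 0.12 and Psat1 of 0.16, 0.083, 0.091, 0.12 and 0.061, so that 1 member was called over all organs instead of 3. All 18 libraries gave 0.72 and 0.74, offsets for length 0.55 and 0.082, and the library series as a covariate 0.31 and 0.41, in ranges of 0.0059 to 0.72 and 0.0081 to 0.74 over the alternatives. Chac1 in LIV missed the threshold without 0 h replicate 2 (1.63, adjusted p = 0.091), without replicate 3 (1.25, 0.075) and with the lane as a covariate (1.26, 0.18), in a range of 0.00084 to 0.18 over the alternatives.

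A joint test over the 6 times asked whether a gene differed at any of them. It called 7 members of 88 (7.34% of all tests). At an unadjusted p under 0.05 there were 24, while the share of all genes at that cut ran from 10.3% in pgWAT to 41.6% in iBAT. With no filter on low counts 13 were called, and with DESeq2 16, while the pairs of gene and organ called over all genes went from 10587 to 19447 and 21698. DESeq2 added Atf4 and Ddit4 in CBL, Ddit3 in BRN, Ddit3 and Ddit4 in STM and 4 members in psWAT. In iBAT (29% of all genes) they were Atf4 (adjusted p = 0.0026), Phgdh (0.0072), Ddit4 (0.022) and Trib3 (0.034). Ddit4 was called in OB (0.0019; 15.3% of all genes), Chac1 in LIV (0.0020; 16.0%) and Asns in STM (0.018; 6.55%). Phgdh in iBAT was highest at 22 h and next at 12 h, with 5.46, 5.80 and 6.49 CPM, all 3 above the fed range. Atf4 in iBAT was lower at 2 h (95.0, 80.7 and 98.2 CPM) and 8 h (94.8, 66.98 and 74.9 CPM) than in at least 2 of 3 fed libraries.

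Without the 22 h libraries the iBAT calls ended, with adjusted p of 0.40 for Atf4, 0.38 for Phgdh, 0.51 for Ddit4 and 0.58 for Trib3, and 3 members were called over all organs. Without replicate 2 of 22 h alone they were 0.053, 0.070, 0.12 and 0.31, which also leaves 3 members called. Ddit4 also missed the threshold without 22 h replicate 3 (0.098), with all 18 libraries (0.14), with no filter (0.11) and with offsets for length (0.34), and Phgdh with the latter (0.091). Trib3 did so without 2 h replicate 2 (0.053), 8 h replicate 2 (0.075) or 8 h replicate 3 (0.074), and with offsets for length (0.35). Asns in STM missed it without 18 h replicate 1 (0.055), without 18 h replicate 3 (0.074), without 18 h as a time (0.27) and with the lane as a covariate (0.92), and Ddit4 in OB with offsets for length (0.17). Over the alternatives the adjusted p ran from 1.7e-07 to 0.40 for Atf4, 5.9e-05 to 0.38 for Phgdh, 0.00014 to 0.51 for Ddit4 and 0.0048 to 0.58 for Trib3 in iBAT, 1.6e-05 to 0.92 for Asns in STM and 6.3e-13 to 0.17 for Ddit4 in OB.

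In psWAT the joint test called no member in edgeR, while 7 of 10 had an unadjusted p under 0.05, beside 19.1% of all genes in that organ. DESeq2 called 4 of them there, beside 1884 of 17172 genes: Phgdh (adjusted p = 0.00031), Atf4 (0.015), Asns (0.036) and Trib3 (0.038). Phgdh in psWAT was 56.8, 50.2 and 22.6 CPM at 0 h, 25.8, 15.9 and 20.7 at 2 h, 104.4, 61.3 and 75.4 at 8 h, and 42.5 and 36.6 at 22 h. Like Asns, Phgdh was low in the 2 h libraries and high in the 8 h libraries, the same that were low and high in white adipocyte markers.

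Because no library of 18 h or 22 h shared a lane with a 0 h library in OB, STM and LIV, the late times were also compared with the daytime libraries of the second lane alone, a comparison chosen after seeing the data. Within that lane Ddit4 in OB was higher late, by 0.51 (adjusted p = 0.0056; 18.2% of all genes called). Chac1 in LIV was higher by 0.99 (unadjusted p = 0.0098, adjusted p = 0.36; 0.0146% of all genes called) and Asns in STM lower, at -0.61 (unadjusted p = 0.025, adjusted p = 0.34; 0.0127% called). Other members of STM with an unadjusted p under 0.05 there were Ddit4 (0.76), Sesn2 (0.71) and Ddit3 (0.61), with adjusted p of 0.32 to 0.38. Over all libraries and organs, late against daytime, a contrast beyond the planned ones, called 7 of 88 members (6.58% of all tests). Within the first lane, Chac1 in LIV at 2 h against 0 h was the 1.93 given above (unadjusted p = 0.00026, adjusted p = 0.075). Late times and 0 h meet in no lane, so lane and fasting are separated there only through the 8 h libraries, which came from both. In pgWAT late times and 0 h meet in no lane either, and this comparison was not run there.

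Whether an organ's late response differed from the mean response of the other 8 organs was tested over all libraries with a term for each mouse. Of 90 tests of a member, 2 were called (4.31% of all tests). The response of Ddit3 in STM exceeded the mean of the other 8 organs by 0.66 on the log2 scale (adjusted p = 0.024; 14.7% of all genes), and that of Ddit4 in iBAT exceeded it by 1.03 (adjusted p = 0.014; 9.25%). In BRN the response of Ddit3 exceeded the mean of the others by 0.58 (unadjusted p = 0.0098, adjusted p = 0.076), so it was not shown to be larger in STM than in each other organ. With the left-out libraries restored neither passed, at 0.66 (adjusted p = 0.081, lowest alternative 0.016) and 0.86 (adjusted p = 0.13, lowest alternative 0.010). The comparison was not run without 22 h of iBAT or with the lane as a covariate. The limits given for 22 h in iBAT and for lane in STM hold here too. The response of Chac1 in LIV exceeded the mean of the other organs by 2.32 and that of Asns in STM was lower, at -0.996, without passing (adjusted p = 0.11 and 0.10), so neither change is shown to be particular to its organ.

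Levels were also compared between organs, as means over all times of feeding and fasting. With 1 TMM scale over all organs, an organ was compared with the mean of the other 8, and 72 of 90 member tests were called, beside 73.7% of all tests. Per kilobase of exon, Atf4 was the most abundant of the 10 genes in every organ, from 57.2 CPM per kb in BRN to 133.7 in LIV. Trib3 was the least abundant in 7 organs, Atf3 in iBAT (1.65 CPM per kb) and Phgdh in LIV (0.0542 CPM per kb).

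The enzymes of serine synthesis spread most between organs on that scale. Mean Phgdh was 137.3 CPM in pgWAT (SD 61.2, n = 18), 31.3 in psWAT, 23.9 in BRN, 14.9 in OB, 13.6 in STM, 13.1 in BST, 9.96 in CBL, 5.84 in iBAT and 0.135 in LIV. In LIV it had 0 to 3 counts in every library, at the floor of 3 counts, so no ratio to LIV is given. The neighbours psWAT and BRN, OB and STM, and STM and BST did not differ at an adjusted p of 0.05. Mean Psat1 was 237 CPM in BST (SD 13.0, n = 18), 231.8 in pgWAT, 161.5 in BRN, 135.1 in OB, 119.8 in CBL, 47.6 in psWAT, 33.2 in STM, 9.504 in iBAT and 1.89 in LIV. BST and pgWAT, BRN and OB, and OB and CBL did not differ, and both enzymes were lowest in LIV, where Psat1 had 0 to 36 counts in a library.

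Mean Asns was 166.8 CPM in STM (SD 63.1, n = 17), 128 in pgWAT, 113.3 in iBAT, 98.3 in BST, 97.0 in BRN, 84.9 in CBL, 58.1 in OB, 32.7 in psWAT (SD 28.7) and 11.2 in LIV. Each neighbour from STM down to CBL did not differ from the next, and the steps below CBL did. Mean Atf4 was 315 CPM in LIV (SD 40.7, n = 18), 285 in STM, 232.7 in psWAT, 180.2 in CBL, 151.6 in pgWAT, 150.6 in iBAT, 147.97 in OB, 137.7 in BST and 134.97 in BRN. LIV and STM did not differ, nor did the neighbours from pgWAT down to BRN. Its span of 2.34-fold over organs was small beside that of the serine enzymes.

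Mean Atf3 was 13.2 CPM in STM (SD 6.86, n = 17), 8.87 in pgWAT, 4.91 in OB, 4.45 in psWAT, 3.55 in iBAT, 2.65 in LIV, 1.60 in CBL, 1.22 in BST and 0.762 in BRN. It was highest in STM and lowest in the brain regions other than OB, and neighbours from OB to LIV, and CBL and BST, did not differ. Mean Trib3 was 9.12 CPM in iBAT (SD 4.37, n = 17), 6.76 in pgWAT, 6.65 in LIV, 4.21 in psWAT, 3.47 in STM, 1.46 in CBL, 0.592 in BST, 0.577 in OB and 0.525 in BRN. The steps from LIV to psWAT, STM to CBL and CBL to BST passed the test and the others did not.

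As means over all times, Ddit4, Sesn2, Ddit3 and Chac1 spanned 2.49-, 1.79-, 1.63- and 1.58-fold over organs. Mean Ddit4 was 72.4 CPM in psWAT (SD 23.3, n = 17), 70.2 in OB, 63.6 in iBAT (SD 40.8), 58.4 in BST, 56.4 in CBL, 35.7 in pgWAT, 33.3 in BRN, 32.8 in STM and 29.1 in LIV. Among neighbours CBL and pgWAT alone differed. Mean Sesn2 was 22.5 CPM in iBAT (SD 8.90, n = 17), 19.9 in OB, 19.6 in pgWAT, 19.02 in CBL, 15.9 in LIV, 15.6 in BST, 13.6 in BRN, 13.4 in STM and 12.6 in psWAT, and CBL and LIV alone differed (adjusted p = 0.043). Mean Ddit3 was 31.3 CPM in BRN (SD 7.62, n = 16), 31.0 in LIV, 30.7 in iBAT, 26.4 in OB, 25.2 in pgWAT, 24.7 in STM, 23.8 in psWAT, 20.8 in CBL and 19.1 in BST. Mean Chac1 was 8.55 CPM in pgWAT (SD 3.48, n = 18), 8.47 in BST, 8.38 in STM, then 6.71 in CBL, 6.38 in BRN, 6.35 in LIV, 5.47 in OB, 5.45 in psWAT (SD 6.98) and 5.43 in iBAT. No neighbours in the order of Ddit3 or of Chac1 differed in these means, which pool fed and fasted libraries. At 0 h, scaled within each organ, Chac1 was 0.422 to 1.41 CPM in LIV and 0.888 to 1.52 in iBAT. In psWAT it was then 0.821 to 5.22 CPM, and in STM, OB, pgWAT, BRN, CBL and BST 4.64 to 10.6.

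**Figure D4:**
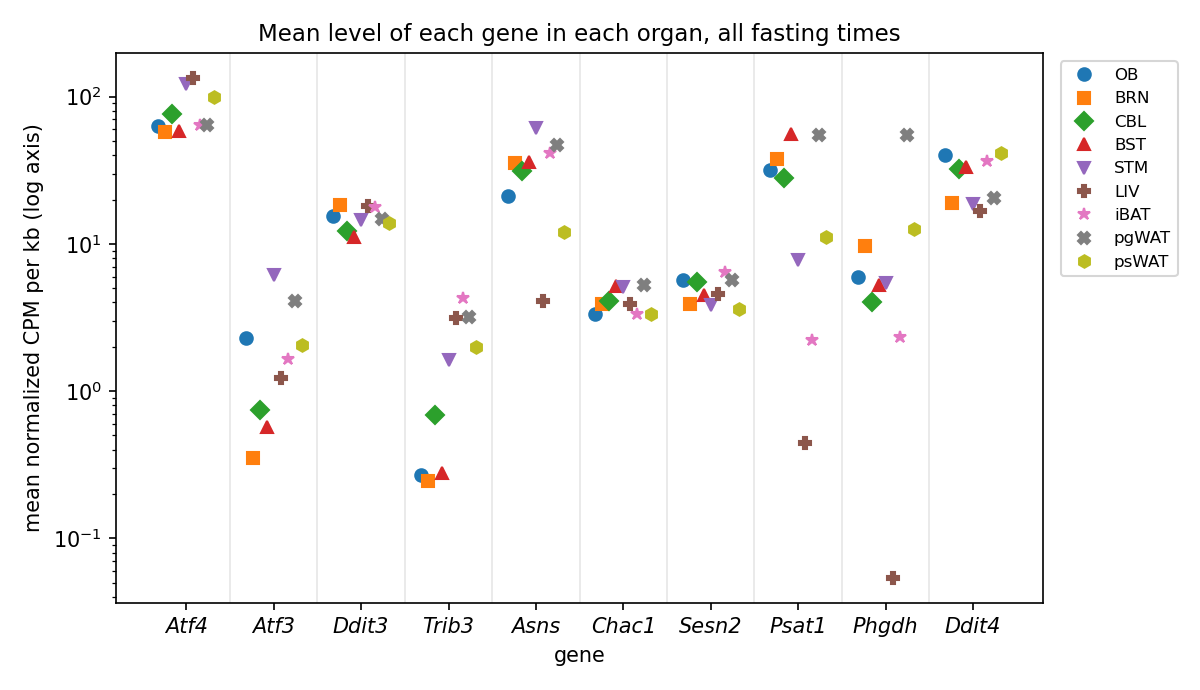
Mean normalized CPM per kilobase of exon (logarithmic axis) of each of the 10 genes in each of the 9 organs over all times. Atf4 is the highest in every organ (57.2 to 133.7 CPM per kb), and Phgdh spans the widest range, from 0.0542 CPM per kb in LIV, where it had 0 to 3 counts in a library, to 55.2 in pgWAT.

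Other genes of the pathway were taken from lists and counted over the 9 organs late in the fast, beside the 6.44% of all tests that were called. Values in this paragraph are without the lane or library series as a covariate, with which fewer genes were called. Late and 0 h libraries share no lane in OB, STM, LIV and pgWAT. In iBAT lane and 22 h cannot be told apart, and in BRN 0 h came from another library series than most later libraries. Of the list of eIF2 kinases, Eif2s1 and the eIF2 phosphatase subunits Ppp1r15a and Ppp1r15b, 5 of 63 tests fell and none rose. Eif2ak3, the kinase PERK of the endoplasmic reticulum, fell by 0.97 in STM, by 0.66 in LIV and by 1.00 in iBAT. Of partners and feedback genes of ATF4, 6 of 72 tests rose and none fell, among them Atf5 in BRN (0.99) and STM (0.85), Cebpd in OB (0.72), STM (1.71) and iBAT (1.41), and Eif4ebp1 in iBAT (0.92). Serine, one-carbon and other amino acid synthesis had 5 up and 5 down of 128, with Pck2 up in BRN and iBAT (0.63 each), Mthfd1l up in LIV (1.60) and Shmt1 down in STM (-1.02) and LIV (-0.57). Transporters of amino acids had 3 up and 1 down of 75, aminoacyl-tRNA synthetases 2 up and 9 down (7.19% of their tests), and secreted factors 2 down of 18, which were Vegfa in OB (-0.37) and BRN (-0.96).

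Chaperones and other genes of the XBP1 and ATF6 arms, which answer unfolded protein beside the ATF4 arm, had 1 up and 19 down (15.9% of their tests). In STM 11 of 14 fell (15.3% of all genes called) with a median log2 fold change of -1.04, among them the chaperone Hspa5 (-1.67), and in LIV 7 of 14 fell (10.6% of all genes called) with a median of -0.79, among them Dnajb9 (-1.21). Late and 0 h libraries share no lane in these organs, and with the lane as a covariate Hspa5 in STM was -1.32 (adjusted p = 0.72) and Dnajb9 in LIV -1.09 (adjusted p = 0.16). The part of the gastric epithelium markers, whose values in STM are given above, was not tested. Glucocorticoid response genes, other than Ddit4, had 10 up and none down of 72, with Tsc22d3 up in OB (0.43), BRN (0.96), STM (0.85) and iBAT (1.02), of which OB, BRN and STM did not pass with the lane or series as a covariate (adjusted p = 0.54, 0.41 and 0.73). FoxO and energy-deficit genes had 5 up and 2 down of 52, and immediate early genes 7 up and 2 down of 88. Over all lists BST, pgWAT and psWAT had no call in edgeR.

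Likeness to other genes was measured as Pearson's r over the libraries used, from 16 to 18 per organ, after the mean of each organ was subtracted. It was taken among 11678 genes, or 11679 for Trib3 and Phgdh. These libraries share organs, mice, depth and lane, so the values only describe. Ddit4 was most like Nfkbia (0.68), Tsc22d3 (0.60) and Cdkn1a (0.57). Asns was most like Apmap (0.77), Aldh1l1 (0.77) and Mccc2 (0.76), and Phgdh like Emc9 (0.78), 1810058I24Rik (0.70) and Fam213b (0.70). For Atf4 the nearest were Ccdc107 (0.77), Gm8129 (0.73) and Gm37108 (0.73), and for Ddit3 Rab24 (0.63), 1110038F14Rik (0.60) and Stx4a (0.59). Chac1 was nearest to Pacsin3 (0.62) and Tmod1 (0.61), and Psat1 to Prps1 (0.56), Gsn (0.53) and Smpd1 (0.52). Among the genes near Trib3 were Mocs2 (0.54) and Atraid (0.54). Sesn2 (Arhgef40, 0.55) and Atf3 (Gm3724, 0.41) had the weakest nearest genes. Over the 9 organ means, which share the same mice, the nearest genes were Ibtk for Atf4 (0.97), Tubb6 for Atf3 (0.96), Kptn for Ddit3 (0.90), P3h4 for Asns (0.96), Pls3 for Chac1 (0.93), Gatc for Sesn2 (0.91), Gm14150 for Psat1 (0.99), Lsm3 for Phgdh (0.95) and Tnrc6b for Ddit4 (0.92). For Trib3, which was too low to be tested in BRN, the nearest was Prorsd1 (0.996).

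Among the members themselves the highest values were Psat1 with Phgdh (0.54), Asns with Psat1 (0.50), Ddit3 with Phgdh (0.44), Atf4 with Ddit3 (0.41), Trib3 with Asns (0.36) and Trib3 with Phgdh (0.35), while Asns with Phgdh was 0.32. In psWAT all libraries of 2 h were below all of 8 h in Asns, Phgdh and Psat1 and in the white adipocyte markers, and the part of this in the values was not tested. The messenger of Atf4 was not aligned with that of Asns (-0.10) or Sesn2 (-0.23).

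ATF4 binds, with C/EBP partners, a composite element of which TGATGNAA is the core, and promoters of the members were searched for these letters on both strands from 250 bases before to 50 bases after the start. Promoter sequences were from RefSeq (GRCm38.p6). All 10 members had a window and 4 of them held a match, beside 1304 of 32851 windows of all genes (3.97%). A match is a description, not a site. The matches of Atf3, Chac1 and Asns are shown since the latter 2 carry the changes in LIV and STM, and capitals mark the matched letters or their reverse complement, 5′ to 3′ on the strand of the gene.
Atf3, chr1:191183425-191183454, minus strand: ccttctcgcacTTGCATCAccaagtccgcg
Chac1, chr2:119351038-119351067, plus strand: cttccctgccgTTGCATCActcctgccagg
Asns, chr6:7693214-7693243, minus strand: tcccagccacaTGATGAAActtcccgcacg
The first matched base lay 110 bases before the RefSeq start in Atf3 and 23 bases before it in Asns, and Trib3 held a match 15 bases after its RefSeq start. These starts differ from those of the gene records given next, which take in the stretches of Atf3 and Asns. The other 6 members had no match in this window, which says only that these letters are not in it.

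By the annotation (GRCm38) all 10 genes are protein coding. Chac1 (ENSMUSG00000027313) lies at chr2:119351229-119354381 on the plus strand, Asns (ENSMUSG00000029752) at chr6:7675169-7693254 on the minus strand, Ddit4 (ENSMUSG00000020108) at chr10:59949669-59951834 on the minus strand, Phgdh (ENSMUSG00000053398) at chr3:98313170-98339990 on the minus strand and Psat1 (ENSMUSG00000024640) at chr19:15904678-15947337 on the minus strand. Sesn2 (ENSMUSG00000028893; chr4:132492032-132510501) overlaps Gm12981 on the same strand, and reads shared by both may have been dropped from its count. Atf3 (ENSMUSG00000026628; chr1:191170296-191218039) and Psat1 hold a short gene on the opposite strand, Gm24748 and Gm3329. Atf4 (ENSMUSG00000042406) lies at chr15:80255184-80257541, Ddit3 (ENSMUSG00000025408) at chr10:127290774-127296288 and Trib3 (ENSMUSG00000032715) at chr2:152337422-152344032.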

How the data were processed

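The authors aligned reads with TopHat2 (2.1.1) to GRCm38.p5 and counted them per gene with HTSeq (0.9.1), by the submitters' processing notes; the deposited values are raw counts per gene and library. The strand setting of the counting is not stated. Genes were kept when at least 3 libraries of the organ reached the CPM equal to 10 counts at the median library size. Each organ was fitted with edgeR (4.0.16; TMM, quasi-likelihood) on hours of fasting; DESeq2 (1.42.0), limma (3.58.1), R (4.3.3) and Python (3.11.15) were also used. Organ levels and differences of response came from 1 fit over all organs with mouse terms. The pipeline was tested on simulated data. Members, gene lists and comparisons were chosen with earlier results of these data known. Lists cover ISR kinases and eIF2, ATF4 partners, amino acid synthesis, transporters, aminoacyl-tRNA synthetases, secreted factors, XBP1 and ATF6 arms, glucocorticoid response, FoxO and immediate early genes, and cell type markers. Genes named beside the members were those of a list with the smallest adjusted p in an organ and the nearest genes by likeness. A member with 3 counts or fewer in a library is at the floor. Counting intervals are exact Poisson at 95% and cover counting error only. Totals ranged over libraries as given above.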

Additional observations from a re-analysis of the deposited data

Results flagged for a closer look

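The late response of an organ differed from the mean of the other 8 organs in 2 of 90 tests of a member, beside 4.31% of all tests, and neither passed with the left-out libraries restored (adjusted p = 0.081 and 0.13). Ddit3 responded in STM by 0.66 more on the log2 scale than the mean of the other 8 organs, and Ddit4 in iBAT by 1.03 more. Late and 0 h libraries share no lane in STM, and in iBAT lane and 22 h cannot be told apart. Libraries that were left out for their low totals held members above the highest fed library of their organ, in CPM with 95% counting intervals that cover counting error only. In BRN at 8 h replicate 3, Chac1 was 107 CPM from 14 counts (58.6 to 180), against 8.04 at most at 0 h. In BRN at 18 h replicate 1, Ddit3 was 125.07 CPM from 35 counts (87.1 to 174), against 35.4, and Phgdh was 53.6 CPM from 15 counts (29.9998 to 88.4), against 25.3. In STM at 12 h replicate 3, Atf4 was 332 CPM (316 to 349), against 271, Ddit3 was 32.0 (27.1 to 37.6), against 19.7, and Chac1 was 16.8 (13.2 to 20.97), against 7.44. In iBAT at 22 h replicate 1, Ddit3 was 41.5 CPM (34.1 to 49.9), against 23.4, and Trib3 was 13.3 (9.34 to 18.5), against 6.10. In psWAT at 22 h replicate 2, Atf4 was 684 CPM (654 to 715), against 268. The same libraries also held members whose interval lay below every fed library of the organ. In BRN at 8 h replicate 3 these were Atf4 (15.3 CPM from 2 counts, against 139.6 at least at 0 h) and Asns (0 counts, against 105.1). In BRN at 18 h replicate 1 they were Atf4 (60.7 CPM, 35.4 to 97.3), Psat1 (96.5 CPM, 63.6 to 140.4, against 145.1), Asns and Sesn2 (0 counts each) and Ddit4 (1 count). In STM at 12 h replicate 3 they were Asns (80.4 CPM, 72.4 to 89.03, against 161.5), Psat1 (6.32 CPM, against 20.6), Sesn2 (4.14 CPM, against 9.25), Ddit4 (11.3 CPM, against 19.2) and Trib3 (0 counts). In iBAT at 22 h replicate 1 it was Atf3 (0 counts), and in psWAT at 22 h replicate 2 they were Psat1 (27.5 CPM, against 50.1), Sesn2 (6.79 CPM, against 16.6), Trib3 (2 counts) and Atf3 (1 count). What sets these libraries apart besides their depth was not tested.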

How the results depend on the processing

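No alternative reversed the direction of a reported result. Counts here are of pairs of a gene and an organ. Late in the fast, 6 pairs of a member and 9289 of all genes were called. Those of members became 3 with all 18 libraries and 2, both of iBAT, with the lane or series as a covariate, and 4 to 10 as single libraries were left out. Those of all genes became 6065, 3123, and 6899 to 13003 under the same, 14365 with DESeq2, and 3686 with an absolute log2 fold change above 1. The covariate was fitted in OB, BRN, STM, LIV, pgWAT and psWAT. Every count given with it includes the calls of CBL, BST and iBAT without a covariate. The joint test called 7 pairs of a member, which became 13 with no filter on low counts, 16 with DESeq2, 3 without 22 h in iBAT and 3 to 9 as single libraries were left out. Its 10587 pairs became 19447 with no filter, 6179 with the covariate, 21698 with DESeq2, 6440 without 22 h in iBAT and 7251 to 13475 over single libraries. The daytime comparison called 3 pairs of a member, which became 5 with no filter, 1 with all 18 libraries, 0 with the covariate and 1 to 3 over single libraries. Beside that 0, the tool was edgeR, and DESeq2 without the covariate called 3. Its 2733 pairs became 4952 with no filter, 1329 with all 18 libraries, 816 with the covariate, 4531 with DESeq2, 1602 with offsets for length and 1367 to 3162 over single libraries. The 2 organ differences of response became 0 with the left-out libraries restored. With a replicate block the counts of member pairs were 6, 7 and 3, as without it; replicate numbers pair no mice within an organ. RLE scaling gave 5 late member pairs, a linear trend 8, offsets for length 4, and the organ comparison called 68 to 73 member pairs instead of 72. Some comparisons were chosen after seeing the data. These were without 22 h in iBAT, without 18 h in STM, and without BRN 2 h replicate 3 and 18 h replicate 2 together. So were those within the second lane, with offsets for length, and without each 2, 8 or 12 h library of BRN, pgWAT and psWAT for the late count. The cause was not tested. For single results, leaving out 1 library gave the same call in 627 cases and a lost call in 211, and other settings in 839 and 208.

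Depth limits Phgdh, Psat1 and Atf3 in LIV, Trib3 in OB, BRN and BST and Atf3 in BRN and BST, with few counts per library, and Chac1 in LIV, with 11, 8 and 3 counts at 0 h. With 3 mice a time and 2 in some, differences near the threshold turn on single libraries. Where a time had 2 libraries, leaving out 1 leaves a single library, with the spread taken from the other times. In OB, STM and LIV no late library shared a lane with a 0 h library and 8 h alone spanned both lanes. In pgWAT too no late library shared a lane with a 0 h library, and in iBAT lane and 22 h cannot be told apart. Messenger levels in whole organs do not give the cells they come from.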
